A study of Homo sapiens with 33 samples.

Results

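The genes described here encode the protein subunits of the cytosolic ribosome. They were taken as every gene row whose symbol is RPL or RPS followed by a number, with or without a final A or X, together with RPLP0, RPLP1, RPLP2 and RPSA. Of 62446 gene rows, 77 met this rule: 31 small-subunit genes (RPS) and 46 large-subunit genes (RPL). The filter on low counts was passed by 76 of the 77 in every comparison.

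RNA was sequenced from 3 cell lines of acute lymphoblastic leukaemia (ALL), as 11 groups of 3 libraries. Nalm6 is a B-cell precursor line, CEM is a T-cell line, and the third line is Nalm6 edited with CRISPR/Cas9 at TLE1, a transcriptional co-repressor. The study asked how glucocorticoid and canonical Wnt signalling affect each other in these cells. Parental Nalm6 was left untreated or received, for 24 h, CHIR-99021 at 0.5 µM, prednisolone at 5 µM or dexamethasone at 100 nM, and a separate untreated Nalm6 group accompanied the dexamethasone libraries. The cells labelled TLE1 knockout were left untreated or received prednisolone at 5 µM or dexamethasone at 100 nM for 24 h. CEM was left untreated or received CHIR-99021 at 2 µM or prednisolone at 10 µM for 24 h. CHIR-99021 inhibits the kinase GSK3 and is used as a Wnt agonist, and prednisolone and dexamethasone are synthetic glucocorticoids. Nalm6 and the edited cells were grown in serum stripped with charcoal, which removes steroid hormones. The labels do not say whether the edited cells are 1 clone, and independent experiments are stated for some arms only, so p-values measure the spread between these libraries, which may be technical in part.

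Ribosomal proteins assemble with ribosomal RNA in the nucleolus into a small subunit, which reads the messenger RNA, and a large subunit, which joins amino acids. Their messenger RNAs are among the most abundant in growing cells and are known for a terminal oligopyrimidine (TOP) start, a C followed by a run of pyrimidines, through which mTORC1 and the RNA-binding protein LARP1 control their translation. Several subunits have further roles: RPL5 and RPL11 bind MDM2 when ribosome assembly fails, RPS6 is the classic substrate of the S6 kinases, RPS19 and RPS14 are lost or mutated in inherited or acquired anaemias, and RPL5, RPL10 and RPL22 are mutated or deleted in T-cell ALL.

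Libraries held 25292579 to 61930057 reads assigned to genes, with a median of 39800090. Marker genes followed the labelled lines: the summed CPM (counts per 1e+06 reads assigned to genes) of 8 B-lineage markers were 2626 to 3645 in Nalm6 and the edited cells and 171 to 245 in CEM, and those of 8 T-lineage markers were 17.8 to 44.4 and 1609 to 1834. Transcripts of TLE1 remained in the libraries labelled TLE1 knockout, at 24.0 to 25.4 CPM untreated. The 2 untreated Nalm6 groups read 30.2 to 34.0 CPM and, in the dexamethasone set, 25.98 to 27.89 CPM. A gene count does not show whether an edit disrupts the protein, so those libraries are called by their label.

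The start of a TOP messenger RNA carries its control element, so the starts of members named below are shown first. Each line gives 10 bases before and 15 bases from the RefSeq start on GRCh38.p14, read on the gene's own strand, and capitals mark a C followed by at least 4 bases that are each C or T and beginning within 5 bases of the start.
RPS16 (chr19:39435935-39435959, minus strand): ccctagCTTTCCTTTTCCggttgcg
RPLP1 (chr15:69452808-69452832, plus strand): ggcgcgagagCCCCTTTCCTCagct
RPL28 (chr19:55385922-55385946, plus strand): cctcgCCTTCCTCTTTCCgtctcag
RPL22 (chr1:6199581-6199605, minus strand): cgctcaCCTCCCTTTCTaactccgc
RPS6 (chr9:19380222-19380246, minus strand): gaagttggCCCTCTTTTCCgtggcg
RPL12 (chr9:127451392-127451416, minus strand): cgatttccggCCTCTCggctttcgg
RPS27 (chr1:153990752-153990776, plus strand): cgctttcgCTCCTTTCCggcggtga
RPL41 (chr12:56116623-56116647, plus strand): cttcgCCTTTCTCTCggccttagcg
RPS21 (chr20:62387093-62387117, plus strand): ctagctgCTTCCTTTCTCTCTCgcg
RPL26 (chr17:8383179-8383203, minus strand): gcgtgtagttCTCTTCCCTTTTgcg
RPS29 (chr14:49598696-49598720, minus strand): agcgcgcagctggcagcggtggttg
Such a run stood at 1 or more starts of 53 of the 62 members with a RefSeq start (85.5%), against 25.2% of 27305 genes. RPS29 is shown because no such run lies within 5 bases of its annotated start. A match describes these letters and is not a measured start. The median log2 fold change of members with and without it was -0.73 and -0.53 for CEM against Nalm6, 0.18 and 0.18 for CHIR-99021 in CEM, 0.04 and -0.01 for prednisolone in CEM, and 0.21 and 0.17 for prednisolone in the knockout-labelled cells, given as descriptions over 53 and 9 members whose difference was not tested.

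Together the 77 genes took 5.04% to 9.85% of the reads assigned to genes in a library, with a median of 7.81%. The large-subunit genes took 3.08% to 5.86% and the small-subunit genes 1.96% to 4.02%. Untreated CEM had the lowest group mean, 5.14% ± 0.09 (SD, n = 3), followed by CEM under prednisolone at 5.37% ± 0.09 and CEM under CHIR-99021 at 5.77% ± 0.14. Untreated Nalm6 stood at 7.51% ± 0.02, Nalm6 under prednisolone at 7.69% ± 0.25, Nalm6 under CHIR-99021 at 7.91% ± 0.42, and the untreated Nalm6 group of the dexamethasone set at 8.34% ± 0.28. The untreated knockout-labelled cells stood at 8.08% ± 0.41 and dexamethasone-treated Nalm6 at 8.68% ± 0.12. The highest means were those of the knockout-labelled cells under dexamethasone, 9.58% ± 0.27, and under prednisolone, 9.59% ± 0.23. All 9 CEM libraries lay below all 24 others. Among the middle groups neighbouring means lay within their spread, and the 2 untreated Nalm6 groups, which carry the same description, differed by a factor of 1.11. These are shares of RNA in bulk samples, in which fewer cells of a type and less RNA per cell cannot be told apart.

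**Figure D1:**
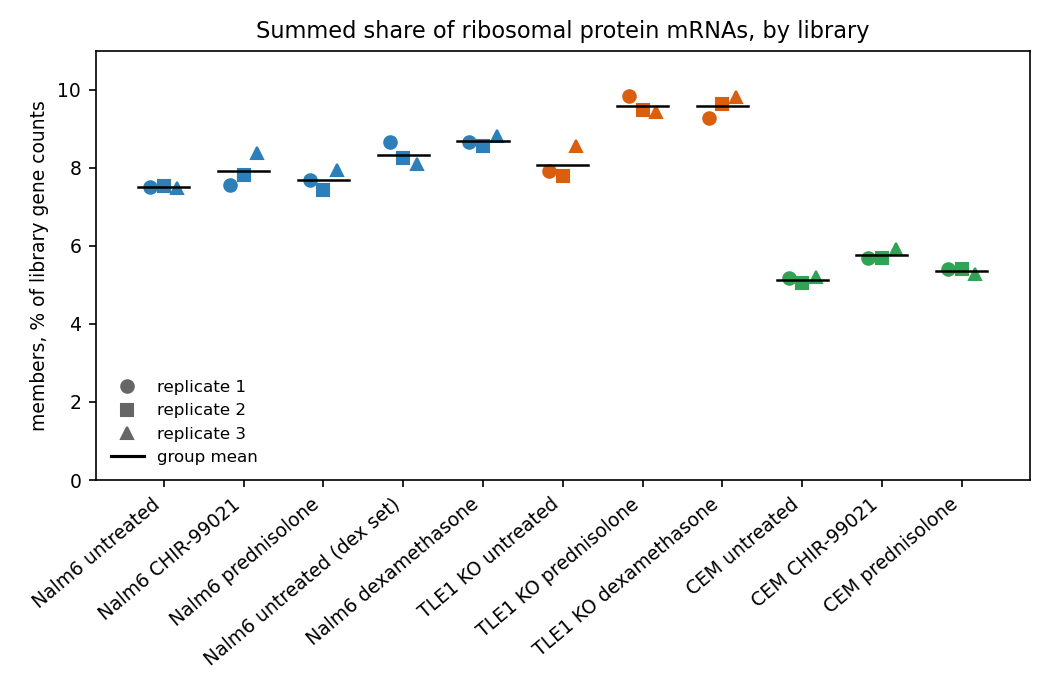
Summed share of the cytosolic ribosomal protein genes in each of the 33 libraries, as a percent of all reads assigned to genes, by group, with the group mean marked. CEM libraries lie between 5.04% and 5.93%, and the treated libraries labelled TLE1 knockout reach 9.85%.

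Members differed widely in level although their proteins are used in near-equal numbers. Per kilobase of coding sequence, RPL41, the smallest ribosomal protein, led untreated Nalm6 at 6312 CPM per kilobase, followed by RPL37A at 4515, RPS18 at 3894, RPS27 at 3792 and RPLP1 at 3685. Short coding sequences read high on this scale, because reads in untranslated regions are counted too. Low levels were those of RPS10 at 23.3, RPL17 at 29.2, RPL36A at 76.7 and RPL26 at 297 CPM per kilobase. These 4 are overlapped by other annotated genes over most of their exons: 84.0% for RPS10, 91.0% for RPL17, 77.6% for RPL36A and 65.3% for RPL26. Reads in such overlaps are assigned to no gene, so the levels of these 4 are uncertain.

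Before the comparisons, libraries that stood apart are described, since they touch several results. RPS16, a small-subunit protein near the decoding site, varied between libraries of the same group far more than any other member that was tested. Its within-group SD was 0.60 on the log2(CPM + 0.5) scale, against a median of 0.07 over the members. Under CHIR-99021 in Nalm6 the 3 libraries read 464, 496 and 66.6 CPM of RPS16. Untreated knockout-labelled libraries read 685, 710 and 372 CPM, CEM under CHIR-99021 502, 377 and 242 CPM, and the untreated Nalm6 libraries of the dexamethasone set 181, 405 and 430 CPM. In each of these 4 groups 1 library lay below 0.75 of the group median: the third CHIR-99021 library of Nalm6, the third untreated knockout-labelled library, the third CHIR-99021 library of CEM and the first untreated library of the dexamethasone set. Untreated CEM also varied in RPS16, at 406 ± 113 CPM (SD), with no library below that limit.

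RPLP1, a protein of the acidic stalk that recruits elongation factors, was low in the libraries low in RPS16. It read 1177, 1280 and 572 CPM in Nalm6 under CHIR-99021, 1510, 1582 and 1174 CPM in the untreated knockout-labelled cells, and 1047, 1419 and 1446 CPM in the untreated dexamethasone set. RPL28, a large-subunit protein, followed with 526, 579 and 396 CPM in Nalm6 under CHIR-99021. Across the 33 libraries, as deviations from group means, the correlation with RPS16 was 0.98 for RPLP1, 0.87 for RPL28, 0.83 for RPL8 and 0.65 for RPS2. Most members went the other way: 68 of 76 had a negative correlation, led by RPS20 at -0.88, RPL37A at -0.86, RPL21 at -0.85, RPS27 at -0.84 and RPLP0 at -0.83. A correlation of -0.5 or lower was found for 65.8% of members against 9.97% of 11007 genes. The points share library and depth, and CPM values of one library compete for the same total, so these are descriptions. RPL37A, for example, was highest where RPS16 was lowest, at 1267, 1247 and 1552 CPM in Nalm6 under CHIR-99021. The genes outside the set with the closest pattern, named after their values were seen, included APEX1 and CNDP2, each at 0.99. Each of the 4 libraries low in RPS16, in the order named, had the lowest share of mitochondrially encoded transcripts of its group, at 0.444%, 0.573%, 0.726% and 0.761%. Each also had the highest summed share of the ribosomal protein genes in its group, at 8.37%, 8.55%, 5.93% and 8.66%. The part of library quality in these patterns was not tested. A further library, the first of the knockout-labelled cells under prednisolone, stood apart in RPL38, at 964 CPM against 602 and 569, and in RPL23, at 1841 CPM against 1447 and 1405.

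**Figure D2:**
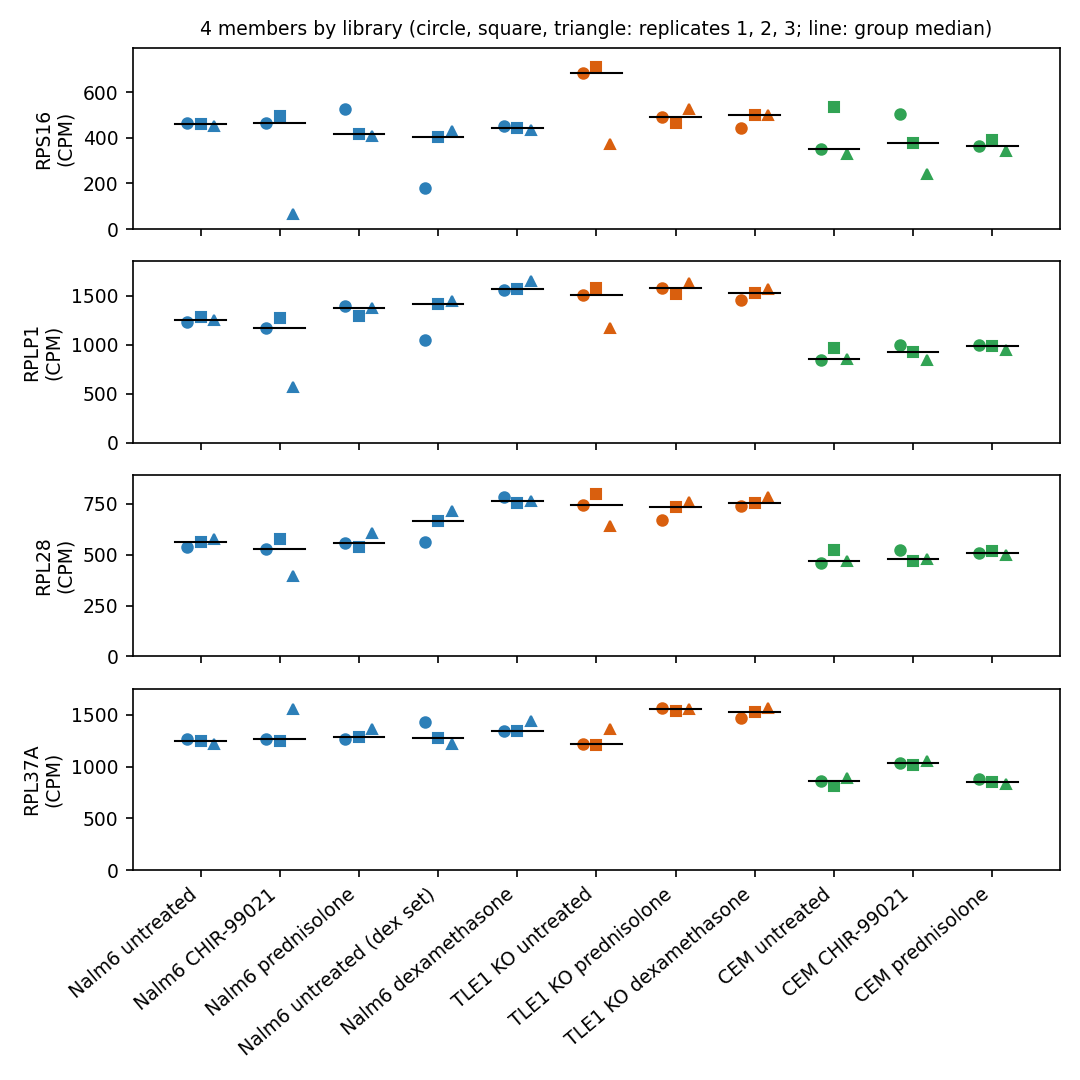
CPM of RPS16, RPLP1, RPL28 and RPL37A in each of the 33 libraries, by group, with symbols for replicates 1, 2 and 3 and a line at the group median. In the third CHIR-99021 library of Nalm6 the first 3 genes are lowest of their group (66.6, 572 and 396 CPM) and RPL37A is highest (1552 CPM).

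Each comparison was tested with edgeR over all genes that passed its filter, and a gene is called higher or lower at an adjusted p under 0.05. Shares of all genes are given for this test only. Counts of members at an unadjusted p, with DESeq2 or without single libraries have none beside them. No excess over other genes can be read from those counts. Where genes at or above a mean log2 CPM are counted, the limit was set so that most members pass. Those shares therefore hold the members and are not those of other abundant genes alone. The set moved as a block in some comparisons and hardly at all in others. Members' median log2 fold changes ran from -0.69 in CEM against Nalm6 to 0.20 for prednisolone in the knockout-labelled cells and 0.22 between the 2 untreated Nalm6 groups, and the difference in prednisolone response between the knockout-labelled cells and their parent had a median of 0.23. No member changed by 1 log2 unit or more in any comparison except CEM against Nalm6.

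**Figure D3:**
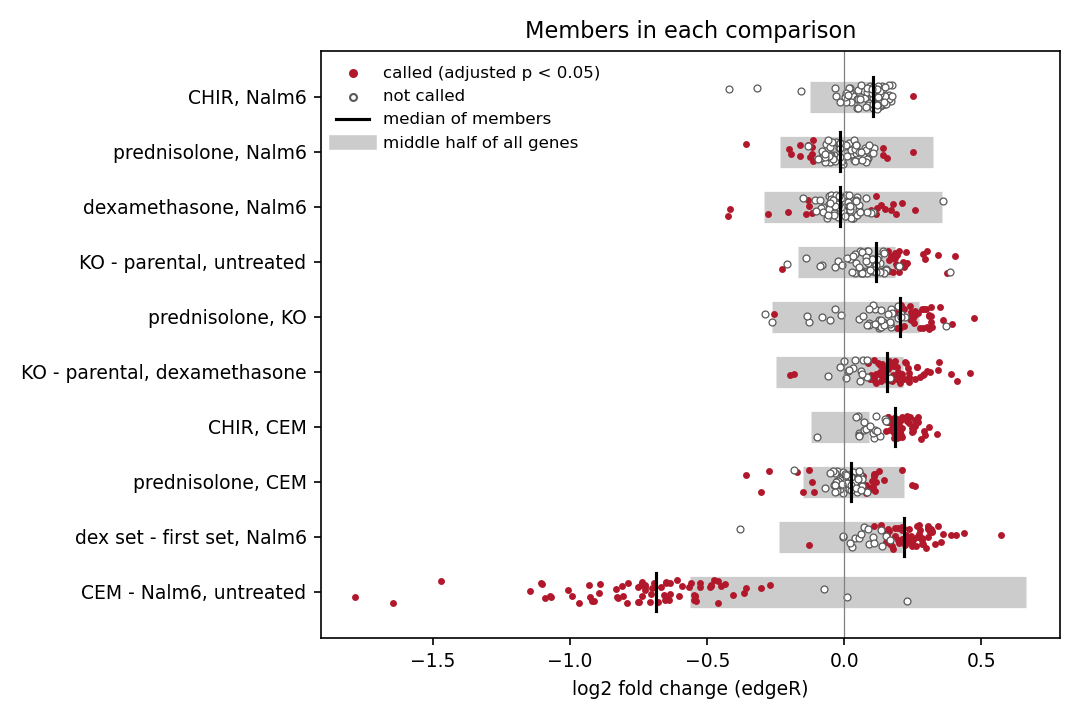
Log2 fold changes of the 76 tested members in the 10 comparisons of 2 groups, 1 point per gene, filled where called, with a line at the members' median and a grey bar over the middle 50% of all genes tested. In CEM against Nalm6, 73 points are called lower, in CHIR-99021 in CEM 57 are called higher, and under the glucocorticoids in parental Nalm6 the points straddle 0.

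The difference between the lines was the widest. Against the untreated Nalm6 group of the dexamethasone set, 73 of 76 members were lower in untreated CEM, 28 of 30 small-subunit and 45 of 46 large-subunit genes, where 37.3% of all 18018 genes tested were lower. None of the 76 was higher, against 40.2% of all genes. That count was also 0 at an unadjusted p under 0.05 and with DESeq2. The median member stood at -0.69, with the middle 50% of members between -0.83 and -0.54, while the middle 50% of all genes spanned -0.56 to 0.66. Of the 473 genes with a mean log2 CPM of 8.30 or more, members among them, 41.4% were higher and 43.3% lower (median -0.02). The shift was graded, and 10 members were lower by more than 1 log2 unit. Against the other untreated Nalm6 group, 71 members were lower, 1 was higher and the median was -0.41.

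RPL22, a large-subunit protein that also binds other RNAs, was the lowest in CEM. Its untreated CEM libraries read 49.4, 48.0 and 44.6 CPM against 163, 158 and 156 CPM in Nalm6. The groups lay far apart, and RPL22 was lower by a log2 change of -1.79 ± 0.05 (SE, edgeR adjusted p = 1.3e-12). RPS6 read 773, 736 and 769 CPM in CEM against 2495, 2234 and 2211 CPM, a log2 change of -1.65 ± 0.05. RPL12, a protein at the base of the stalk, read 551, 531 and 554 CPM against 1532, 1436 and 1447 CPM, a log2 change of -1.47 ± 0.04. These 3 lay more than 3 scaled median absolute deviations below the members' median. RPS6 and RPL12 lie on chromosome 9, whose 4 members had a median of -1.10, the lowest of any chromosome. The other members on it, RPL35 (-0.74) and RPL7A (-0.73), lay close to the members' median. RPS6 lies far from the rest on that chromosome, and the part of position was not tested. Members with named roles were lower throughout: RPL13A -1.07, RPS14 -0.99, RPS19 -0.83, RPS27A -0.74, RPL11 -0.70, RPL10 -0.64 and RPL5 -0.49 on the log2 scale. The stalk proteins RPLP0, RPLP1 and RPLP2 were lower by log2 fold changes of -0.91, -0.59 and -0.57.

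The smallest called differences were those of RPL15 (-0.27), RPS4X (-0.31), the X-linked copy of RPS4, and RPSA (-0.36), the laminin-receptor homologue. RPS4X read 1251, 1172 and 1223 CPM in CEM against 1547, 1443 and 1394 CPM in Nalm6. RPS21 did not pass the test, at 424, 437 and 446 CPM in CEM against 459, 453 and 426 CPM (log2 fold change -0.07 ± 0.04, edgeR adjusted p = 0.14). RPL36A (0.01) and RPS16 (0.23 ± 0.25) did not pass either, and the Nalm6 group holds 1 of the libraries low in RPS16. RPS16 also varied in untreated CEM, at 406 ± 113 CPM (SD).

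**Figure D4:**
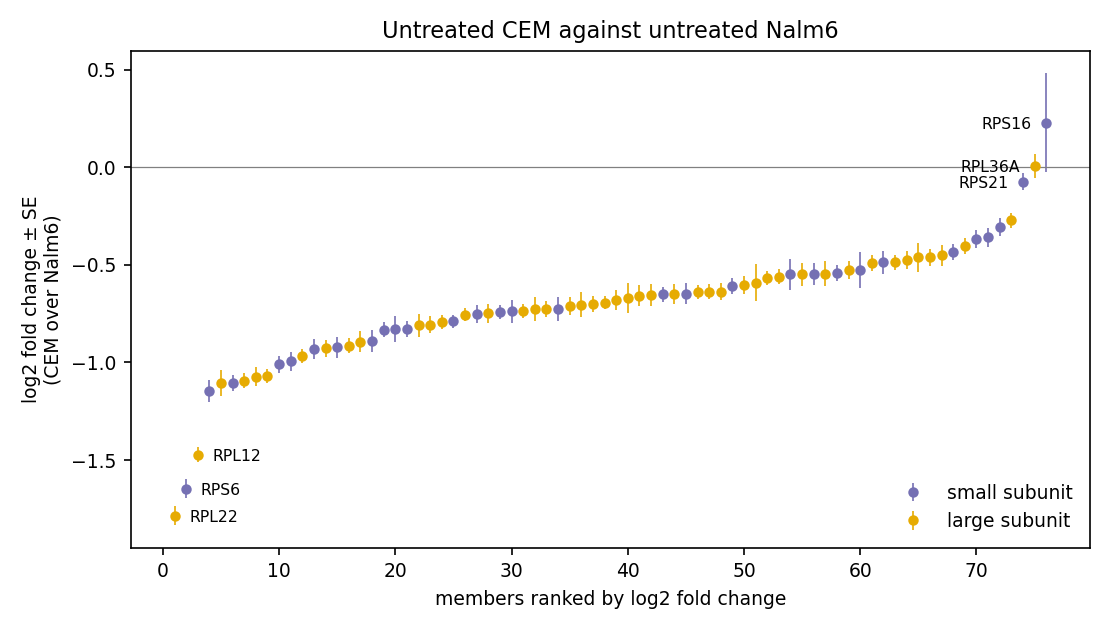
Log2 fold change of each tested member between untreated CEM and the untreated Nalm6 group of the dexamethasone set, ranked, with standard errors and coloured by subunit. RPL22, RPS6 and RPL12 stand below the rest at -1.79, -1.65 and -1.47, and RPS21, RPL36A and RPS16 stand at or above -0.07.

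Other genes of the translation system were set beside the members. Of a chosen list of other TOP genes, all 19 tested were lower in CEM (median -0.60). Among them were TPT1 at -1.35 and EEF1A1, the elongation factor, at -0.70. RACK1, a small-subunit protein under another name, was lower by a log2 change of -1.44, and FAU did not pass the test at -0.07. Mitochondrial ribosomal proteins were divided, with 16 of 83 higher and 47 lower (median -0.21). Of 7 tested paralogs 2 were higher and 2 lower (median -0.12). RPL39L, a copy of RPL39, read 40.5, 37.0 and 39.7 CPM in CEM against 12.7, 13.1 and 12.5 CPM in Nalm6, a log2 change of 1.57. RPL39 itself was lower at -1.11. RPL22L1, the paralog of RPL22, read 71.9, 68.9 and 76.3 CPM against 89.0, 74.1 and 72.8 CPM and did not pass the test (-0.16, edgeR adjusted p = 0.057). MYC, a transcriptional activator of ribosomal protein genes, was lower by -1.70 and EIF4EBP1, a repressor of cap-dependent translation, by -1.14.

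CHIR-99021 was given to both lines, at different doses and with different untreated groups. In CEM, 57 of 76 members rose, where 5.41% of all 17200 genes tested rose. None fell, against 5.43% of all genes; none fell at an unadjusted p under 0.05, and DESeq2 called 60 higher and 0 lower. The rise was small and even, with a median of 0.19 and the middle 50% of members between 0.15 and 0.22. The middle 50% of all genes lay between -0.12 and 0.09. Of the 614 genes with a mean log2 CPM of 8.10 or more, members among them, 22.3% rose and 7.98% fell (median 0.04). RPL41 rose most, from 386, 364 and 369 CPM to 467, 454 and 476 CPM, a log2 change of 0.34 ± 0.04 (edgeR adjusted p = 0.00014). No treated library overlapped an untreated one. RPS27, a zinc-finger protein of the small subunit, rose from 759, 731 and 761 CPM to 916, 898 and 938 CPM (0.31 ± 0.03). RPL12 (0.30), RPL37A (0.29) and RPL11 (0.28) were next, and RPLP0 (0.24), RPL5 (0.20), RPS6 (0.18), RPS19 (0.18) and RPLP2 (0.19) also rose. RPS16 (-0.10 ± 0.22), RPL28 (0.04), RPL15 (0.05), RPS29 (0.05) and RPLP1 (0.08) did not pass the test. Without the third treated library, low in RPS16, the count stayed at 57. Over all single libraries left out, it ran from 48 to 59. Of the other TOP genes 12 of 19 rose, as did 20 of 83 mitochondrial ribosomal proteins, and MYC fell (-0.55).

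In Nalm6 at the lower dose only RPS10 was called, higher by a log2 change of 0.25 ± 0.07 (edgeR adjusted p = 0.049). Another gene overlaps 84.0% of the exons of RPS10, so its level is uncertain. Its treated libraries read 14.6, 12.6 and 14.1 CPM, above the highest untreated one at 11.8 CPM. That is 1 of 76 members higher, where 3.16% of all genes were higher, and 0 lower, where 4.72% were lower. At an unadjusted p under 0.05, 18 members were higher and 0 lower, and DESeq2 called 5 higher and 0 lower. The members' median was 0.10, and 70 of 76 estimates were positive. RPS16 (-0.42 ± 0.51), RPLP1 (-0.32 ± 0.22) and RPL28 (-0.16 ± 0.11) were the lowest estimates and did not pass, and all 3 genes were lowest in the third treated library. Without that library the median was 0.05 and 7 members were called higher, and without any 1 of the untreated libraries no member was called. The test of the difference between the lines called 0 members higher and 0 lower with edgeR, where 0.63% and 0.545% of all genes were called. At an unadjusted p under 0.05 it gave 13 higher and 0 lower, and DESeq2 called 2 higher. The median difference was 0.11, and 11 members were called higher without the third Nalm6 library. Dose and line changed together and cannot be told apart.

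Glucocorticoids left the summed level of the set nearly level in parental Nalm6 and in CEM, while single members moved in either direction. Prednisolone in Nalm6 gave 4 members higher and 11 lower, where 28.7% and 26.1% of all 18658 genes tested were higher and lower. In the series' sample order its treated libraries stand with the dexamethasone and CEM libraries, apart from the untreated group used here. Their share of reads in no annotated feature was 26.3% to 32.7%. It was 26.4% to 28.3% in that untreated group and 19.2% to 19.7% in the untreated dexamethasone set. Dexamethasone in Nalm6 gave 11 higher and 8 lower, where both shares were 30.2%. Prednisolone in CEM gave 20 higher and 8 lower, where 22.3% and 22.8% were called. The members' medians were -0.02, -0.02 and 0.02. Of genes with a mean log2 CPM of at least 8.47, 8.62 and 8.06, members among them, 21.9%, 24.7% and 21.0% were higher. The shares lower were 49.1%, 45.9% and 50.2%. The spread was narrow too: under prednisolone in Nalm6 the middle 50% of members lay between -0.07 and 0.04, against -0.23 to 0.32 for all genes.

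RPS27 rose in all 3 of these comparisons. Under prednisolone in Nalm6 it went from 960, 960 and 947 CPM to 1188, 1133 and 1156 CPM, a log2 change of 0.25 ± 0.04 (edgeR adjusted p = 2.3e-05). Under dexamethasone it went from 1242, 1111 and 1074 CPM to 1303, 1285 and 1384 CPM (0.18 ± 0.06, edgeR adjusted p = 0.015). In CEM it went from 759, 731 and 761 CPM to 935, 913 and 900 CPM (0.26 ± 0.03, edgeR adjusted p = 5.7e-07). The treated and untreated libraries did not overlap in any of them. RPL13A, a protein also known from interferon-driven translational silencing, rose under dexamethasone (0.15) and in CEM (0.21) and stood at 0.09 without passing under prednisolone in Nalm6. RPL39 and RPL31 also rose under prednisolone in Nalm6.

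A small group fell. RPL35, which sits at the exit of the peptide tunnel, went from 733, 755 and 769 CPM to 653, 640 and 709 CPM under prednisolone in Nalm6, a log2 change of -0.20. It went from 911, 874 and 884 CPM to 791, 771 and 811 CPM under dexamethasone (-0.21) and from 542, 546 and 559 CPM to 509, 513 and 492 CPM in CEM (-0.15). The ranges did not overlap in any of the 3. RPL8 fell in the same 3 comparisons (-0.20, -0.13 and -0.12). RPL17 fell by more, -0.36, -0.42 and -0.27, and RPS10 fell under dexamethasone (-0.43) and in CEM (-0.36), but both are among the genes with few unambiguous reads. RPL14 and RPL24 fell under both agents in Nalm6, with RPL14 at -0.16 and -0.12.

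The test of the difference in prednisolone response between CEM and Nalm6, whose doses differ, called 3 members higher and 1 lower, where 14.7% and 12.2% of all genes were called. The treated and untreated Nalm6 libraries of this test stand apart in the sample order, though their shares of reads in no annotated feature overlap. RPL24 (0.17 ± 0.05), RPL14 (0.17 ± 0.05) and RPL10A (0.15 ± 0.06) were higher and RPL36A (-0.33 ± 0.08) lower. RPL36A read 20.5, 20.1 and 20.6 CPM in CEM under prednisolone, below the lowest untreated library at 22.8 CPM. In Nalm6 it read 23.4, 24.9 and 24.9 CPM untreated and 23.1, 27.4 and 25.9 CPM treated. Without the third treated Nalm6 library 14 members were called higher and 1 lower, and without the first or the second treated CEM library 0 and 1.

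Other genes of ribosome production were set beside the members. All 6 tested paralogs fell under prednisolone and under dexamethasone in Nalm6, RPL22L1 by -0.36 and -0.74 and RPL36AL by -0.25 and -0.50, and 4 of 7 fell in CEM. Of 8 chaperones that escort single ribosomal proteins to the assembling subunit, 7 fell under each agent in Nalm6 and 5 in CEM. Mitochondrial ribosomal proteins fell in 59 of 85, 70 of 84 and 41 of 83 cases. EIF4EBP1 fell in all 3 (-1.08, -1.11 and -0.84), as did MYC, with -1.08 under dexamethasone and -0.81 in CEM. TPT1, itself a TOP messenger RNA, rose by 0.24, 0.16 and 0.32, while the other TOP genes as a list were divided, with 3 higher and 6 lower of 19, 3 and 7, and 6 and 6. The counts under prednisolone in Nalm6 moved with single libraries: 18 members were higher and 6 lower without the second treated library, 3 and 21 without the third, and 1 and 8 without the first. In CEM 10 were higher and 8 lower without the first treated library, 9 and 9 without the second, and 17 and 16 without the second untreated library. Without the first untreated library of the dexamethasone set, low in RPS16, dexamethasone gave 23 higher and 11 lower, while the first treated library left out gave 7 and 5.

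**Figure D5:**
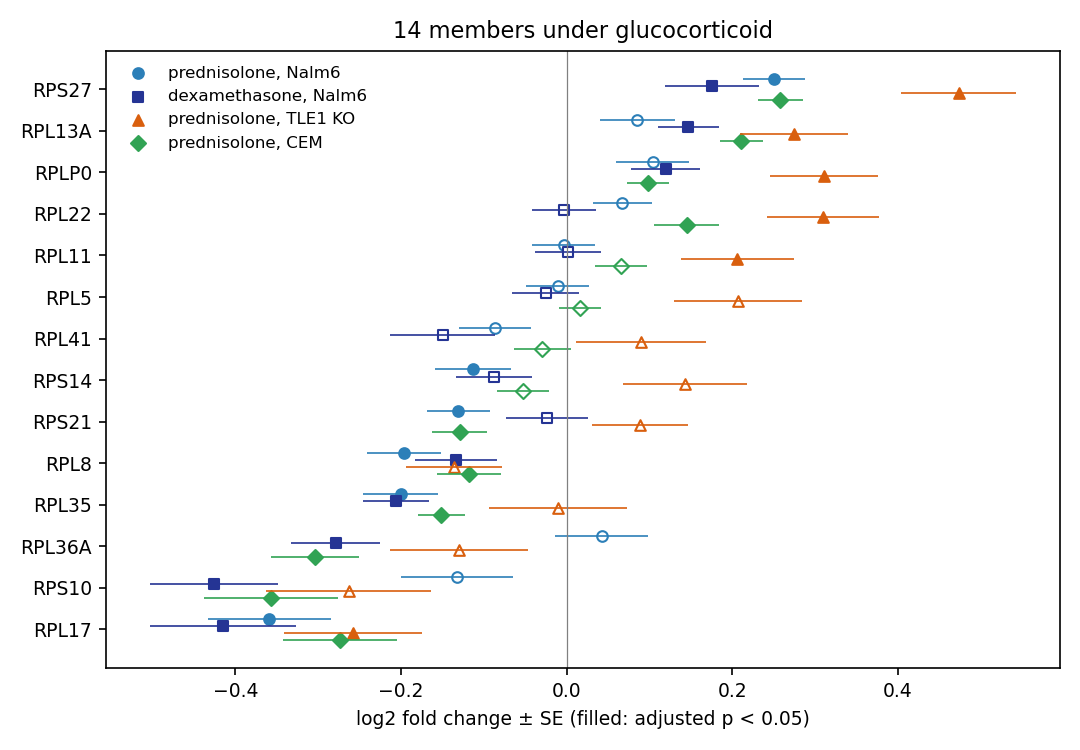
Log2 fold changes with standard errors of selected members under prednisolone or dexamethasone in Nalm6, in the cells labelled TLE1 knockout and in CEM. RPS27 lies above 0 in all 4 comparisons, from 0.18 to 0.47, and RPL17 below 0 in all 4; filled symbols passed the test.

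In the cells labelled TLE1 knockout, prednisolone gave 37 of 76 members higher and 1 lower, where 19.8% and 21.9% of all 16555 genes tested were called. The median was 0.20, and the summed share was 1.19 times that of the untreated group. Of the 281 genes with a mean log2 CPM of 8.76 or more, members among them, 26.3% were higher and 34.5% lower (median 0.02). RPS27 rose from 959, 929 and 1057 CPM to 1411, 1374 and 1422 CPM, a log2 change of 0.47 ± 0.07 (edgeR adjusted p = 0.00035). RPS3A rose from 1447, 1414 and 1693 CPM to 2271, 1940 and 1931 CPM (0.39 ± 0.10), and RPS4X from 1330, 1317 and 1483 CPM to 1968, 1720 and 1756 CPM (0.36 ± 0.08). In each of these 3 genes the third untreated library was the highest of its group and still below every treated one. RPL22 (0.31), RPLP0 (0.31), RPL39 (0.30), RPL13A (0.27), RPL10 (0.25), RPS27A (0.25), RPS6 (0.24), RPSA (0.22), RPL11 (0.21) and RPS19 (0.19) also rose. RPL38 had an estimate of 0.37 ± 0.17 that did not pass, resting on 1 treated library at 964 CPM, and RPL5 (0.21) and RPL41 (0.09) did not pass. RPL17 fell (-0.26). Of the other TOP genes 7 rose and 2 fell of 19, with TPT1 at 0.44 and EEF1A1 at 0.40, while 44 of 83 mitochondrial ribosomal proteins fell. The count of members depended on single libraries. Without the third untreated library, low in RPS16, 51 were higher and 2 lower; without the first untreated library 17 were called in either direction, and without the second 10. Leaving out any 1 treated library gave 21 to 23 called.

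The prednisolone response of these cells was set against that of parental Nalm6 by the test of the difference. In the series' sample order, the prednisolone-treated Nalm6 libraries stand with the dexamethasone and CEM libraries, apart from the other groups of this test. The 2 untreated Nalm6 groups, which stand apart in the same way, differed by a members' median of 0.22. The share of reads in no annotated feature was 27.9%, 32.7% and 26.3% in the prednisolone-treated Nalm6 libraries. It was 26.7%, 28.3% and 26.4% in the untreated Nalm6 group of this test and 19.7%, 19.2% and 19.6% in that of the dexamethasone set. What part the sample order has in the difference was not tested. One member was called: RPS29, a zinc-binding protein of the small-subunit head, was higher by a log2 difference of 0.36 ± 0.10 (edgeR adjusted p = 0.049). It went from 505, 532 and 536 CPM to 571, 646 and 699 CPM in the knockout-labelled cells and from 487, 479 and 448 CPM to 429, 444 and 475 CPM in Nalm6. That is 1 of 76 higher, where 1.1% of all genes were higher, and 0 lower, where 2.38% were lower. At an unadjusted p under 0.05, 53 members were higher and 0 lower, and DESeq2 called 13 higher and 0 lower. The shares of all genes at those settings are not given. The median difference was 0.23, and 71 of 76 estimates were positive. Without the third untreated knockout-labelled library 49 were higher and 1 lower; the other single libraries left out gave 0 to 6 called.

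Cells labelled TLE1 knockout were also compared with parental Nalm6 directly. Untreated, 25 of 76 members were higher and 1 lower, where 15.3% and 11.8% of all genes were called, with a median of 0.12. RPL28 (0.40 ± 0.08), RPS2 (0.37 ± 0.04), RPS21 (0.34 ± 0.04), RPS28 (0.30) and RPL3 (0.30), the large-subunit protein closest to the peptidyl transferase centre, were the highest of those called. RPS16 had an estimate of 0.39 ± 0.19 that did not pass. RPS21 read 512, 505 and 500 CPM against 406, 405 and 408 CPM, and RPS2 read 2484, 2473 and 2376 CPM against 1900, 1931 and 1929 CPM, without overlap. RPL41 (0.29), RPSA (0.22) and RPLP2 (0.18) were higher as well, and RPL36A was lower (-0.23). Without the third knockout-labelled library the counts were 32 and 4 and the median 0.05. Without any 1 of the 3 untreated Nalm6 libraries 6 to 8 were called. With all libraries, 370 genes had a mean log2 CPM of 8.58 or more, members among them. Of these, 22.2% were higher and 13.5% lower (median 0.01).

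Under dexamethasone the knockout-labelled cells had 59 of 76 members higher and 2 lower than Nalm6, where 28.5% and 28.1% of all genes were called, with a median of 0.16. Of the 254 genes with a mean log2 CPM of 8.83 or more, members among them, 54.3% were higher and 24.8% lower (median 0.10). RPL26, a large-subunit protein at the exit of the peptide tunnel, read 141, 157 and 159 CPM against 115, 112 and 108 CPM, a log2 change of 0.46 ± 0.04. Another gene overlaps 65.3% of its exons, so its level is uncertain. RPS21 read 578, 596 and 604 CPM against 459, 422 and 469 CPM (0.41 ± 0.04), and RPS29 (0.39), RPS3 (0.35) and RPS25 (0.34) followed. RPL10, which completes the large subunit late in its assembly, was lower, at 1376, 1316 and 1398 CPM against 1545, 1555 and 1629 CPM (-0.20 ± 0.03). RPS15 was also lower (-0.18). Neither group held a library low in RPS16, and leaving out any 1 library gave 58 to 66 members called. The groups did differ without overlap in library measures. Reads mapped to more than 1 place were 6.97% to 7.55% in the knockout-labelled libraries and 5.49% to 5.72% in Nalm6. Unmapped reads were 2.84% to 4.54% and 5.50% to 11.2%. Reads assigned to genes were 25292579 to 29290785 and 40643909 to 43228009. Leaving out single libraries cannot show what part these measures have, which was not tested. Of the other TOP genes 13 of 19 were higher.

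The 2 untreated Nalm6 groups also differed. In the group of the dexamethasone set 58 of 76 members were higher and 1 lower than in the other untreated group, where 25.8% and 24.4% of all genes were called, with a median of 0.22. Of the 378 genes with a mean log2 CPM of 8.52 or more, members among them, 45.0% were higher and 16.9% lower (median 0.08). RPL41 stood at 732, 657 and 633 CPM against 491, 458 and 472 CPM, a log2 change of 0.57 ± 0.05. RPL10 (0.44), RPL11 (0.41) and RPL34 (0.39) were next, and RPL26, overlapped over most of its exons, was lower (-0.13). No treatment separates these groups by label, so differences of this size occurred between untreated cells of 1 line. Of the mitochondrial ribosomal proteins 55 of 84 were higher too.

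The knockout-labelled cells have no untreated group in the dexamethasone set, so their dexamethasone response was estimated with the difference between the 2 untreated Nalm6 groups subtracted. The subtraction takes that difference to hold in the edited cells too, which was not tested. Without it 60 members were called (share of all genes not given). The summed share under dexamethasone was 1.18 times that of the untreated knockout-labelled cells. With the subtraction 8 members were higher and 7 lower, where 18.5% and 21.5% of all genes were called, with a median of 0.03. RPL26 (0.44), RPL39 (0.34) and RPS3 (0.28) were higher, and RPS27 rose by 0.24 ± 0.08. The level of RPL26 is uncertain, because another gene overlaps most of its exons. RPS15 (-0.37), RPL35 (-0.36) and RPL41 (-0.35) were lower. Without the third untreated knockout-labelled library 25 were higher and 7 lower, and without the first untreated Nalm6 library of the dexamethasone set 21 and 6. With all libraries low in RPS16 left out, a choice made after seeing the data, 32 were higher and 10 lower. This estimate, the direct comparison of the 2 untreated groups and the comparisons of each with treated cells share control libraries and are not independent of each other.

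Across the 14 comparisons the same few members lay away from the rest, by more than 3 scaled median absolute deviations from the members' median. RPS16 did so in 10 comparisons, RPL36A and RPS10 in 7 each, RPL17 in 5 and RPLP1 in 3. RPS10, RPL17 and RPL36A are the genes with few unambiguous reads, and RPS16 and RPLP1 those of the library pattern. RPL26, overlapped by another gene over most of its exons, did so in 2 comparisons, as did each of RPL28, RPL41 and RPS27. RPL10, RPL12, RPL22, RPL39, RPS6 and RPS15 did so in 1 each. The other 61 tested members lay within that distance in every comparison.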

How the data were processed

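Raw read counts per gene were deposited as tables in the layout of the aligner STAR, with 33 libraries and 62446 gene rows. Per the submitters' processing notes the build was hg19 and the tools included Bowtie2 and DESeq2; the aligner version and annotation are not given in the sources used here. The reverse-strand counts of the deposited tables were used, and rows of unassigned reads were left out of all totals. Only unambiguous, uniquely mapped reads were counted, so reads shared with pseudogenes or overlapping genes are missing. CPM is a count per 1e+06 reads assigned to genes.

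For every comparison a model of the groups involved was fitted with edgeR 4.0.16 in R 4.3.3 (filterByExpr, TMM, quasi-likelihood test, Benjamini-Hochberg adjustment over all genes tested). Standard errors were taken from the F statistic. DESeq2 1.42.0, other filters and scalings, a joint fit of all libraries, the unstranded counts, a replicate block and leaving out each library were alternatives. The fits were tested on simulated data. Exon overlap and coding length came from GENCODE v29, and starts from RefSeq on GRCh38.p14, matched by symbol; no coordinates of the deposited build are given.

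The members and lists were chosen with earlier results of these data known. Named members are the 3 highest and 3 lowest in each comparison, those beyond 3 scaled median absolute deviations, the 5 highest and 5 lowest per kilobase, and 16 chosen for their known roles; others were named after their values were seen, and some members that meet the rule are not reported here. The treatment protocol in the labels and the titles differ on which line received which agent, and the titles were followed. Same-numbered libraries were checked for shared deviations: correlations ran from -0.41 to 0.36 over 10 comparisons, and every pair was over 0.1 in 1 of them, so the numbers were not taken as pairs. Every pair of replicates differed by more than sampling noise.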

Additional observations from a re-analysis of the deposited data

Results flagged for a closer look

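The prednisolone response of RPS29 differed between the cells labelled TLE1 knockout and parental Nalm6 by a log2 difference of 0.364, by the test of the difference in edgeR. The prednisolone responses of RPL10A (0.1521), RPL14 (0.1675) and RPL24 (0.1727) were higher in CEM than in Nalm6 by the same kind of test, and that of RPL36A was lower (-0.3327). The doses of the 2 lines differed, and RPL36A rests on few unambiguous reads. In all of these tests the treated and untreated parental Nalm6 libraries stand apart in the series' sample order. Their shares of reads in no annotated feature overlap.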

How the results depend on the processing

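Named results were followed under the alternatives only where they passed the main test, 50 in all. Of their alternative values, 710 kept direction and side of the threshold, 70 kept direction without passing, and 1 reversed. The reversed one was RPL41 in the dexamethasone response of the knockout-labelled cells. It was 0.22 when the difference between untreated Nalm6 groups was not subtracted, where the count of members called was 60. Leaving out single libraries gave, as members called of 76, 0 to 7 for CHIR-99021 in Nalm6, 48 to 59 in CEM and 0 to 11 for their difference; 9 to 24 for prednisolone in Nalm6, 18 to 33 in CEM, 1 to 15 for their difference, 10 to 53 in the knockout-labelled cells and 0 to 50 for the difference from the parent; 12 to 34 for dexamethasone in Nalm6 and 8 to 32 in the knockout-labelled cells with the set difference subtracted; 6 to 36 for untreated and 58 to 66 for dexamethasone-treated knockout-labelled cells against the parent; 73 to 74 for CEM against Nalm6 and 51 to 66 for the untreated Nalm6 groups. Without the filter on low counts 15 members were called for CHIR-99021 in Nalm6, 20 for prednisolone in knockout-labelled against parental cells and 6 for CHIR-99021 in CEM against Nalm6; with at least 10 counts in every library the second gave 2 and prednisolone in CEM against Nalm6 gave 9. DESeq2 gave 5, 13 and 2 for the first 3. With the unstranded counts CHIR-99021 in Nalm6 gave 0, prednisolone in the knockout-labelled cells 20, its difference from the parent 0 and that between CEM and Nalm6 1. That difference from the parent gave 0 with RLE size factors, 3 with normalization without the members and 27 with all 33 libraries fitted together. The joint fit gave 11 for dexamethasone in Nalm6, 36 for CHIR-99021 and 9 for prednisolone in CEM, and 1 for the latter's difference from Nalm6. With the replicate number as a block, CHIR-99021 in Nalm6 gave 0, the untreated knockout-labelled cells 12 and prednisolone in them 19; the untreated Nalm6 groups, where same-numbered libraries correlated by 0.36, 0.11 and 0.25, gave 62 higher and 2 lower, and no label ties those numbers. With libraries low in RPS16 left out, chosen after seeing the data, the subtracted dexamethasone response gave 42 and CHIR-99021 in CEM against Nalm6 gave 7. The causes were not tested. No alternative scaling moved the median of all genes by more than 0.1 or turned the sign of a members' median. Medians near 0 did turn under other settings: that of dexamethasone in Nalm6 to 0.0025 with at least 10 counts in every library, 0.0012 without its second treated library and 0.02 without its first untreated one, that of prednisolone in Nalm6 to 0.02 without its second treated library, and that of the subtracted dexamethasone response to -0.0003 without treated library 3.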
